A study of Danio rerio and Xiphophorus maculatus with 12 samples.

Results

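Ion channel subunit genes were followed in heart ventricles of zebrafish and platyfish, a livebearing teleost, after freezing damage to the ventricle wall. Members were all genes whose symbol begins with kcn, scn, cacn or hcn and carries a number, the gene families of potassium, sodium, calcium and pacemaker channels. This rule gave 376 of the 56729 genes in the count tables, 199 of 32520 in zebrafish and 177 of 24209 in platyfish. Of the platyfish genes, 16561 carried a symbol, against 32175 of the zebrafish genes, so a platyfish channel gene without a symbol was not among the members. In all, 87 members had at least 10 counts in at least 3 libraries of their species and were tested, 34 in zebrafish and 53 in platyfish.

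Voltage-gated channels open and close with the voltage across the cell membrane and shape the cardiac action potential. Sodium channels carry its upstroke, calcium channels its plateau and the calcium entry that triggers contraction, and voltage-gated potassium (Kv) channels its repolarisation. Each pore is formed by an alpha subunit (alpha1 for calcium channels), and auxiliary subunits bound to the pore set its gating and its amount at the membrane. Inward rectifier (Kir) channels hold the resting potential, two-pore-domain (K2P) channels carry a background leak, calcium-activated potassium channels open with calcium, and hyperpolarisation-activated (HCN) channels drive pacemaking. The symbol rule took in these relatives too. It gave 137 zebrafish and 126 platyfish symbols of voltage-gated pores and their auxiliary subunits, against 61 and 50 of Kir, K2P and calcium- or sodium-activated potassium channels. The remaining symbol in each species, scnm1, belongs to a splicing factor and not to a channel. All cacng genes were counted as auxiliary calcium channel subunits. They encode gamma subunits or the related TARPs, which serve glutamate receptors.

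The 4 groups were zebrafish ventricles on day 7 after cryoinjury, uninjured zebrafish ventricles, platyfish ventricles on day 7 after cryoinjury and uninjured platyfish ventricles. All fish were adults labelled as wild type, and the uninjured fish had not been handled at all, so that no sham-operated group stood beside them. Each group held 3 libraries, made from 8 pooled ventricles each, freed of atrium and bulbus arteriosus, and every n = 3 below counts such pools. Libraries were stranded poly(A) RNA sequencing libraries of the whole ventricle, all of its cell types mixed. Library totals ran from 20735097 to 27994535 counts in zebrafish and from 19073562 to 31148127 in platyfish. Zebrafish cryoinjured replicates 2 and 3 listed 16530 and 15976 genes with a count, against 18102 to 18819 in the other zebrafish libraries, and 57 and 50 channel members, against 68 to 81. In platyfish 90 to 105 members had a count in each library. Cardiomyocyte genes identified the tissue, with a summed level of 56296 to 59530 counts per 1000000 (CPM) in cryoinjured and 73034 to 81401 CPM in uninjured zebrafish ventricles over 16 genes. In platyfish the same list, with 11 genes found, summed to 42941 to 56955 CPM in cryoinjured and 49571 to 58038 CPM in uninjured ventricles.

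Most channel genes had few or no counts in the ventricle. Of the members, 34 of 199 in zebrafish and 53 of 177 in platyfish passed the count minimum. Over all genes 13578 of 32520 passed it in zebrafish and 15298 of 24209 in platyfish. In zebrafish 165 members stayed under the count minimum, 89 of them with no count in any library, and in platyfish 124 stayed under it, 41 of them with no count. Of the tested members, 25 in zebrafish and 40 in platyfish had at least 10 counts in all 6 libraries. Just inside the minimum lay 6 zebrafish members, among them scn1lab with 9, 13 and 0 counts in cryoinjured and 14, 25 and 9 in uninjured ventricles. Just outside lay 8, among them hcn4, the main sinoatrial pacemaker channel of mammals, with 9, 0 and 0 counts in cryoinjured and 11, 1 and 11 in uninjured ventricles. In platyfish 5 members lay just inside and 7 just outside, such as cacna1ha, a low-voltage-activated calcium pore, with 11, 9 and 7 counts in cryoinjured and 12, 8 and 4 in uninjured ventricles. Platyfish kcne4 and kcnq5a passed only through their cryoinjured libraries and kcng4b only through its uninjured ones, so a difference in these 3 genes was built into their selection.

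Past the main test were 0 channel genes in zebrafish and, in platyfish, 2 higher and 1 lower. Such small numbers cannot be told from the shares of all genes called. In zebrafish no member changed at an adjusted p under 0.05 (edgeR quasi-likelihood test, Benjamini-Hochberg adjustment over 13578 genes), while 0.67% of all tested genes were called higher and 0.302% lower. At an unadjusted p under 0.05, 2 zebrafish members were higher and 4 lower, against 8.26% and 7.15% of all genes, and DESeq2 called kcne4 higher and cacna1c lower, beside 2.69% and 1.66% of all genes. In platyfish 2 members rose, kcne4 and CACNA2D3, and 1 fell, kcnj14 (edgeR quasi-likelihood test, Benjamini-Hochberg adjustment over 15298 genes), beside 2.71% of all genes called higher and 1.22% lower. Of these, kcne4 was among the genes that passed the count minimum through 1 group only. CACNA2D3 met it in all cryoinjured libraries but in uninjured replicate 1 only. With the replicate number as a block, platyfish kcne4 was the only member called, beside 1.34% of all genes called higher and 0.346% lower. DESeq2 called 4 platyfish members higher and 4 lower, adding kcnq5a and scn2b to the higher and kcnab1b, scn1laa and scn4ba to the lower genes. Kcnq5a passed the count minimum through its cryoinjured libraries only, and scn2b mainly through them. Over all platyfish genes DESeq2 called 6.01% higher and 5.03% lower, so that the members' shares, 4 of 53 each, lay near the background. At an unadjusted p under 0.05, 5 platyfish members were higher and 10 lower, against 13.2% and 10.9% of all genes.

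The groups of libraries did not overlap for 5 zebrafish members, kcne4 on the higher side and kcnj14, cacna1c, cacna2d1a and scn5lab on the lower side. Of all zebrafish genes, 10.6% were higher and 10.9% lower without overlap. In platyfish 7 members were higher and 12 lower without overlap, against 16.8% and 13.6% of all genes. Platyfish kcne4 and kcnq5a are among the 7 and kcng4b is among the 12. The median log2 fold change of the tested members was -0.25 in zebrafish, against -0.02 for all genes, with 13 members positive and 21 negative. In platyfish it was -0.07, against 0.01 for all genes, with 24 members positive and 29 negative. With counts scaled by library size alone the median of all genes became 0.16 in zebrafish and 0.14 in platyfish, and those of the members -0.09 and 0.05, so that in both scalings the members' median lay under that of all genes in both species. The sign of a small change therefore depends on the scaling: under library size alone 29 platyfish members were positive and 24 negative.

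**Figure D1:**
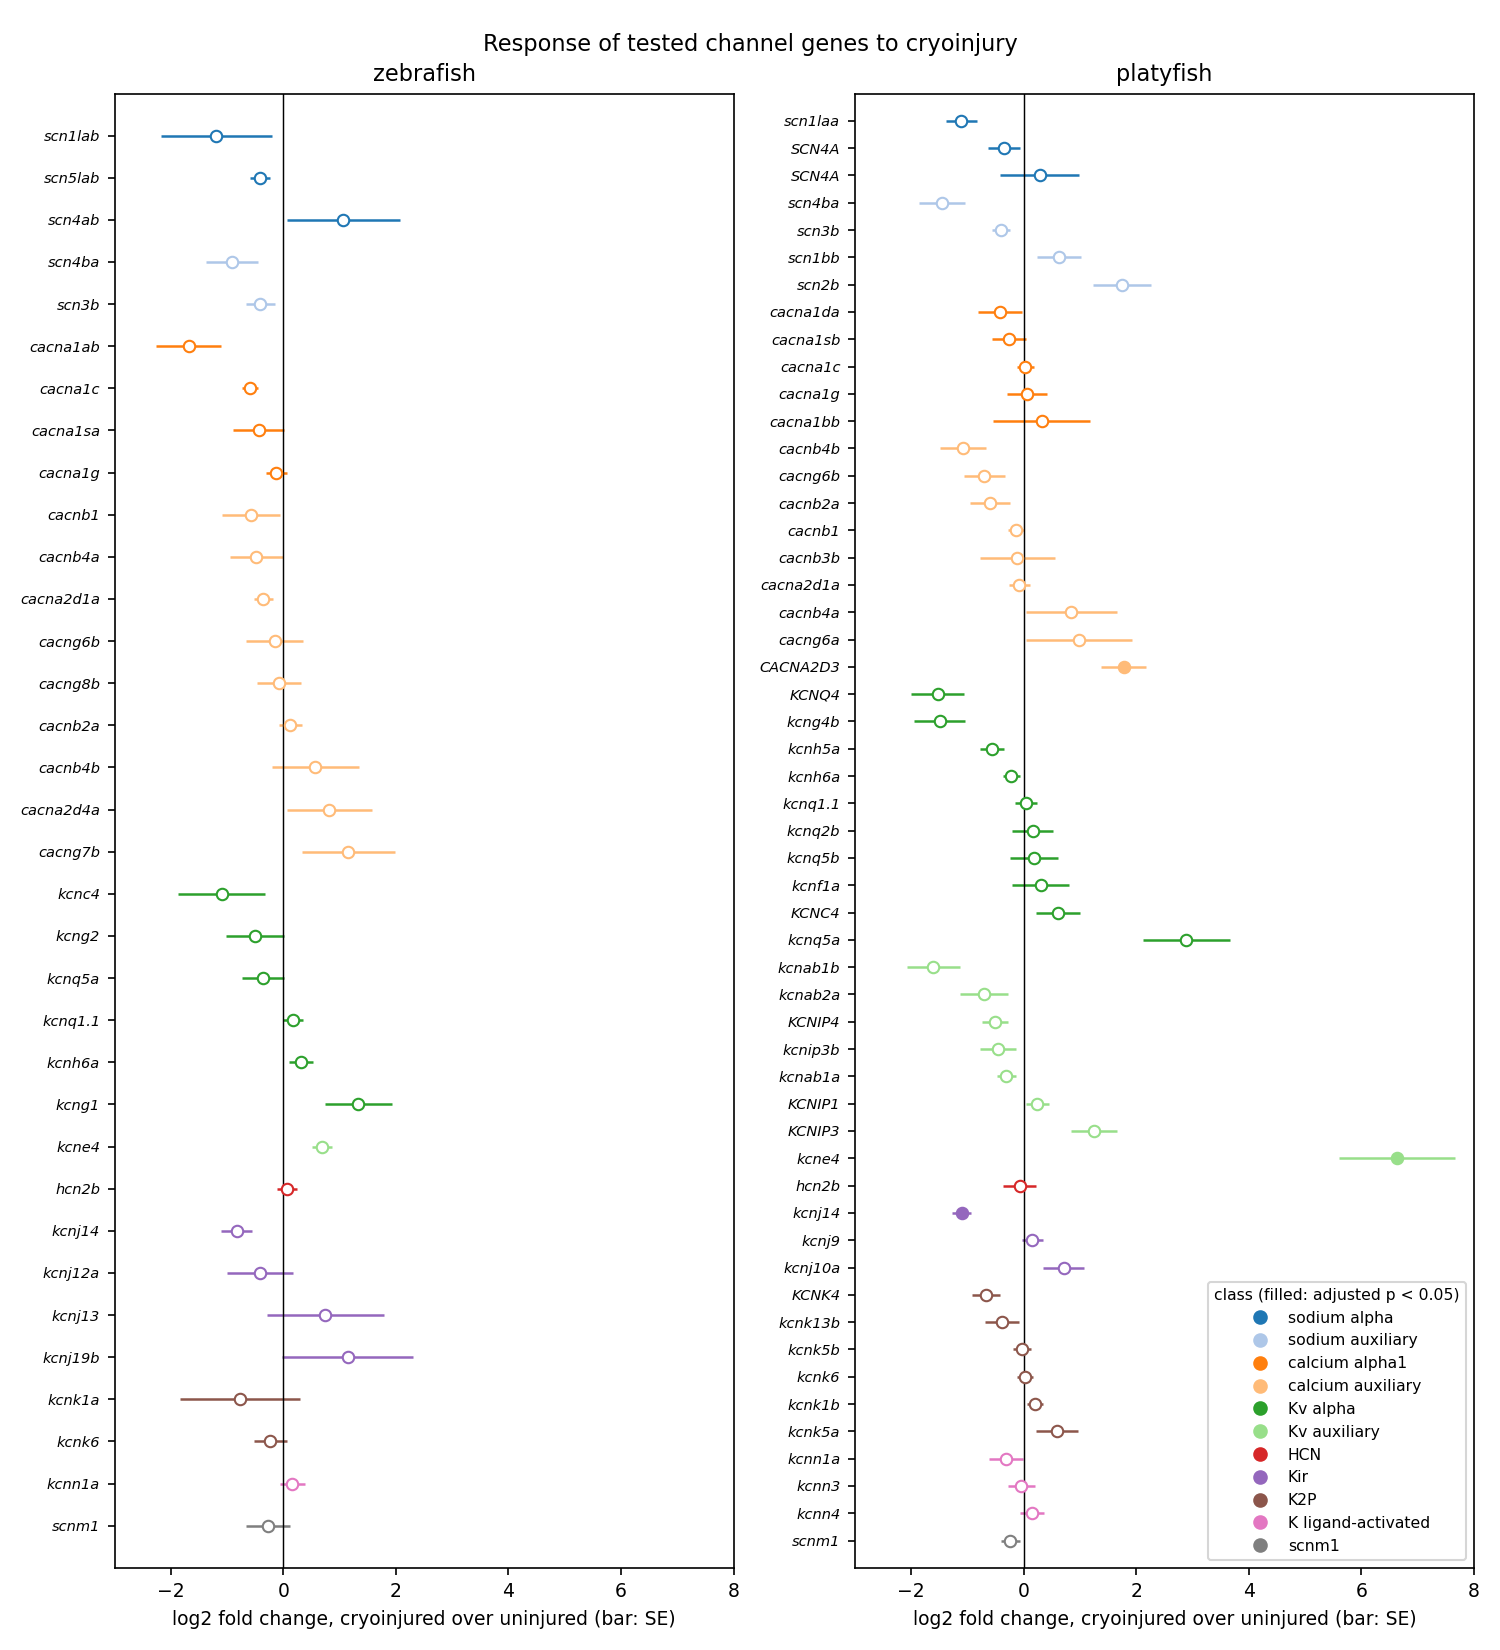
Log2 fold change, cryoinjured over uninjured, of the 34 tested zebrafish members (left) and the 53 tested platyfish members (right), sorted within each channel class; points are the edgeR estimates, bars their standard errors, and filled points have an adjusted p under 0.05. Only platyfish kcne4 (6.63), CACNA2D3 (1.78) and kcnj14 (-1.10) are filled, and no zebrafish point is.

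The inward rectifier kcnj14 fell in injured platyfish hearts by more than 1 unit on the log2 scale. This gene encodes Kir2.4, a strong inward rectifier of the subfamily that stabilises the resting potential of mammalian heart muscle. In platyfish (gene ENSXMAG00000012601, chromosome 3) it stood at 173, 171 and 194 CPM in cryoinjured ventricles, against 439, 391 and 324 CPM in uninjured ones. All 3 injured pools lay below all 3 uninjured pools. On the log2 scale the change was -1.10 ± 0.17 (SE), at an adjusted p of 0.0174 (edgeR quasi-likelihood test, Benjamini-Hochberg). With the replicate block the adjusted p was 0.0501. Without cryoinjured replicate 1 it was 0.0591, without cryoinjured replicate 3 0.0690, without uninjured replicate 1 0.0683 and without uninjured replicate 2 0.0623, and the log2 fold change was negative in all 6 omissions. In a whole-ventricle library, fewer cells of a type and less RNA per cell cannot be told apart.

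Zebrafish kcnj14 (chromosome 16) stood at 18.1, 7.48 and 11.3 CPM in cryoinjured ventricles, against 23.2, 19.4 and 23.3 CPM in uninjured ones. Again no injured pool reached an uninjured one, although replicate 1 lay close. Its log2 fold change was -0.83 ± 0.28 and did not pass the test, with an adjusted p of 0.201 (edgeR quasi-likelihood test, Benjamini-Hochberg). Without cryoinjured replicate 1 the log2 fold change was -1.22 with an adjusted p of 0.0328 (edgeR quasi-likelihood test, Benjamini-Hochberg). This was the 1 omission of 6 past the test, in a fit that called 159 of 13127 genes higher and 124 lower. Over the 6 omissions the log2 fold change ran from -1.22 to -0.57 and the adjusted p from 0.0328 to 0.446 (edgeR quasi-likelihood test, Benjamini-Hochberg). Without cryoinjured replicates 2 and 3 together, which left 1 injured pool, the log2 fold change was -0.27. The cardiac Kir2 relative kcnj12a, which encodes Kir2.2, had 2.19, 1.00 and 0.451 CPM in cryoinjured and 2.40, 1.09 and 1.42 CPM in uninjured zebrafish ventricles, and the groups overlapped. The other tested rectifiers were kcnj13 and kcnj19b in zebrafish and kcnj9 and kcnj10a in platyfish, with log2 fold changes of 0.15 to 1.14, none past the test.

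Kcne4 lay higher in the injured pools of both species, from a measurable level in zebrafish and from almost nothing in platyfish. Zebrafish kcne4 did not pass the main test. The platyfish gene passed the count minimum only through its cryoinjured libraries, so its direction was built in. The product of kcne4 is a single-pass auxiliary subunit that, in mammals, inhibits the Kv7.1 potassium channel. Platyfish kcne4 (gene ENSXMAG00000008266, chromosome 18) had 15, 75 and 55 counts in cryoinjured ventricles, against 0, 1 and 0 counts in uninjured ones. In CPM these were 0.525, 2.65 and 2.19 in cryoinjured ventricles, against 0, 0.0389 and 0 in uninjured ones. The lowest injured pool, replicate 1, had fewer counts than the other injured pools, and all 3 lay above the uninjured ones. Summed over libraries, 145 counts stood against 1, a ratio of 148 after correction for library totals. The 95% exact interval of 26.2 to 5896 covers counting error only, and not the spread between pools. Since platyfish kcne4 was selected through its cryoinjured libraries, the ratio and its interval are given as a description.

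The fitted log2 fold change of platyfish kcne4 was 6.63 ± 1.03 (SE), which depends on the prior count used near zero, at an adjusted p of 0.0177 (edgeR quasi-likelihood test, Benjamini-Hochberg). Since the gene passed the count minimum only through its cryoinjured libraries, a difference was built into this test by the selection. With every gene that had a count kept in the fit, the log2 fold change was again 6.63, with an adjusted p of 0.0048 (edgeR quasi-likelihood test, Benjamini-Hochberg). The adjusted p was 0.0760 without uninjured replicate 1 and 0.0749 without uninjured replicate 2. Without any of the 3 cryoinjured libraries the gene fell under the count minimum. Zebrafish kcne4 (chromosome 15) stood at 23.3, 36.0 and 34.9 CPM in cryoinjured ventricles, against 21.8, 19.2 and 17.6 CPM in uninjured ones. Replicate 1 of the injured pools lay just above the highest uninjured pool. Its log2 fold change of 0.68 ± 0.18 had an adjusted p of 0.114 (edgeR quasi-likelihood test, Benjamini-Hochberg), against 0.86 and an adjusted p of 0.0297 without cryoinjured replicate 1. This was the 1 omission of 6 past the test, in a fit that called 159 of 13127 genes higher and 124 lower. Over the 6 omissions the log2 fold change ran from 0.59 to 0.86 and the adjusted p from 0.0297 to 0.344 (edgeR quasi-likelihood test, Benjamini-Hochberg). The log2 fold change was 0.26 without cryoinjured replicates 2 and 3 together, the libraries with the fewest detected genes, which left 1 injured pool.

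Markers of fibroblasts and epicardium were higher in the same injured pools. In zebrafish 5 of 14 tested genes of that list rose, and its summed level was 569 to 730 CPM in cryoinjured and 228 to 270 CPM in uninjured ventricles. In platyfish 9 of 15 rose, with 637 to 1268 CPM in cryoinjured and 254 to 336 CPM in uninjured ventricles. Leukocyte genes summed to 1803 to 2358 CPM in cryoinjured and 928 to 1449 CPM in uninjured zebrafish ventricles, with 3 of 18 genes higher past the test, and overlapped between the platyfish groups. Endothelial genes summed to 761 to 912 CPM in cryoinjured and 640 to 713 CPM in uninjured zebrafish ventricles, and smooth muscle genes to 207 to 221 CPM in cryoinjured and 166 to 190 CPM in uninjured ones, while both lists overlapped in platyfish. The part of these cells in the kcne4 values was not tested.

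**Figure D2:**
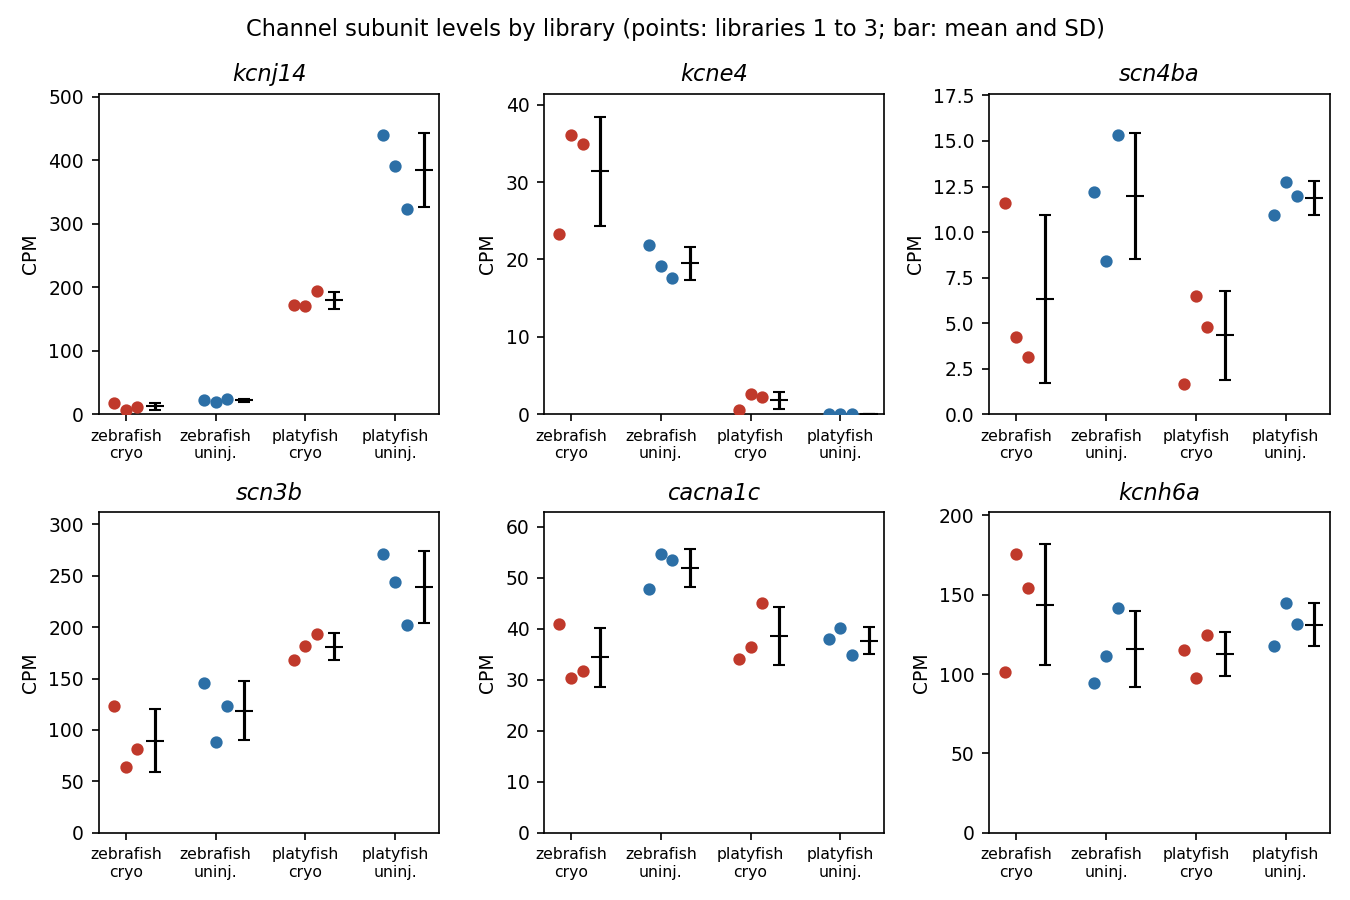
Level in CPM, on an axis from 0, of 6 channel genes in each library of cryoinjured and uninjured zebrafish and platyfish ventricles; points are libraries 1 to 3 and bars the mean and SD of 3 pools. Platyfish kcnj14 separates the groups (171 to 194 CPM in cryoinjured, 324 to 439 CPM in uninjured pools), and kcnh6a overlaps in both species. Kcne4 lies higher in the injured pools of both species, a difference built in by the selection of the gene in platyfish.

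The other auxiliary subunits of Kv channels passed the count minimum only in platyfish, where 5 of the 8 tested genes of this class had negative and 3 positive fold changes. The beta subunit gene kcnab1b had 0.525, 0.388 and 0.318 CPM in cryoinjured ventricles, against 1.92, 1.01 and 0.829 CPM in uninjured ones. The groups did not overlap, and its log2 fold change of -1.61 ± 0.47 had an adjusted p of 0.0863 (edgeR quasi-likelihood test, Benjamini-Hochberg). KCNIP1 encodes a calcium-binding partner of Kv4 channels and stood at 22.7, 22.4 and 19.6 CPM in cryoinjured and 19.4, 22.7 and 12.6 CPM in uninjured platyfish ventricles. These groups overlapped, with a log2 fold change of 0.24 ± 0.21.

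Among the Kv pores, the major repolarising channels of the fish ventricle had overlapping levels in both groups. Kcnh6a encodes the ERG channel that carries the rapid delayed rectifier current in zebrafish heart. Zebrafish kcnh6a had 101, 176 and 154 CPM in cryoinjured ventricles, against 94.1, 112 and 142 CPM in uninjured ones. Platyfish kcnh6a had 115, 97.7 and 125 CPM in cryoinjured ventricles, against 118, 145 and 131 CPM in uninjured ones. The log2 fold changes were 0.31 ± 0.21 in zebrafish, with an adjusted p of 0.531, and -0.22 ± 0.15 in platyfish, with an adjusted p of 0.411 (edgeR quasi-likelihood test, Benjamini-Hochberg). Without zebrafish cryoinjured replicates 2 and 3 the zebrafish value was -0.19. Kcnq1.1, which encodes the Kv7.1 pore of the slow delayed rectifier, averaged 33.4 ± 7.85 CPM in cryoinjured and 29.7 ± 1.79 CPM in uninjured zebrafish ventricles (SD, n = 3 each). In platyfish it averaged 23.7 ± 5.86 CPM in cryoinjured and 23.0 ± 3.47 CPM in uninjured ventricles (SD, n = 3 each). Both comparisons of kcnq1.1 overlapped.

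Some Kv pores with few counts had larger fold changes that did not pass the test. Kcnq5a, a member of the Kv7 family that carries the M-type current in mammalian neurons, had 0.665, 0.388 and 0.477 CPM in cryoinjured platyfish ventricles, against 0.137, 0.0389 and 0 CPM in uninjured ones. These were 19, 11 and 12 counts against 4, 1 and 0, without overlap. Its log2 fold change was 2.89 ± 0.77, with an adjusted p of 0.0713 (edgeR quasi-likelihood test, Benjamini-Hochberg) and 0.0438 by DESeq2. The gene passed the count minimum only through its cryoinjured libraries, so a difference was built into both tests by the selection. In zebrafish kcnq5a had 2.34, 2.38 and 1.53 CPM in cryoinjured and 3.17, 1.77 and 3.13 CPM in uninjured ventricles, with overlap. Kcng1, a subunit that is silent alone and modifies Kv2 channels, had 0.804, 2.76 and 1.67 CPM in cryoinjured and 1.11, 0.408 and 0.542 CPM in uninjured zebrafish ventricles, with a log2 fold change of 1.33 ± 0.60 and an adjusted p of 0.323 (edgeR quasi-likelihood test, Benjamini-Hochberg). Cryoinjured replicate 1 overlapped with the uninjured pools. Over the 6 tested zebrafish Kv pores, log2 fold changes ran from -1.10 to 1.33 with a median of -0.10. Over the 10 of platyfish they ran from -1.53 to 2.89 with a median of 0.10.

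The L-type calcium channel pore lay lower in every injured zebrafish pool and overlapped between the platyfish groups. Cacna1c encodes Cav1.2, which carries the plateau current of the ventricle. In zebrafish it stood at 41.0, 30.4 and 31.8 CPM in cryoinjured ventricles, against 47.7, 54.7 and 53.4 CPM in uninjured ones. No injured pool reached an uninjured one. The log2 fold change was -0.59 ± 0.15 with an adjusted p of 0.0902 (edgeR quasi-likelihood test, Benjamini-Hochberg), so that it did not pass the test. DESeq2 gave an adjusted p of 0.0243, and without cryoinjured replicate 1 the edgeR quasi-likelihood value was 0.0359 with a log2 fold change of -0.74. This was the 1 omission of 6 past the test, in a fit that called 159 of 13127 genes higher and 124 lower. Over the 6 omissions the log2 fold change ran from -0.74 to -0.50 and the adjusted p from 0.0359 to 0.314 (edgeR quasi-likelihood test, Benjamini-Hochberg). The weakest of the 13 other settings gave -0.34.

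Platyfish cacna1c stood at 34.1, 36.4 and 45.0 CPM in cryoinjured ventricles, against 37.9, 40.2 and 34.9 CPM in uninjured ones, with a log2 fold change of 0.03 ± 0.14. The injured pools lay on both sides of the uninjured ones. Cardiomyocyte genes were lower in the injured zebrafish pools as well: 3 of 16 fell, actc1a, cmlc1 and myl7, with a median of -0.49 on the log2 scale over the list and summed levels that did not overlap. In platyfish 0 of 11 were called by edgeR, with a median of 0.07 and overlapping sums. Whether the share of heart muscle in the pools bears on the zebrafish cacna1c values was not tested.

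The other tested calcium pores overlapped between groups in both species. Cacna1g encodes the T-type channel Cav3.1, a low-voltage-activated channel of pacemaking and developing heart cells. It had 122, 89.8 and 71.2 CPM in cryoinjured and 86.6, 108 and 114 CPM in uninjured zebrafish ventricles, and the sign of its log2 fold change, -0.13 ± 0.19, turned to 0.06 when counts were scaled by library size alone. In platyfish it had 12.98, 4.94 and 6.04 CPM in cryoinjured and 8.83, 5.99 and 8.34 CPM in uninjured ventricles. Cacna1ab, a pore of the P/Q type that serves transmitter release in mammalian neurons, had 0.402, 0.878 and 0.721 CPM in cryoinjured and 0.801, 2.54 and 3.13 CPM in uninjured zebrafish ventricles. Its log2 fold change was -1.69 ± 0.58 with an adjusted p of 0.210 (edgeR quasi-likelihood test, Benjamini-Hochberg), and cryoinjured replicate 2 overlapped with uninjured replicate 1. The Cav1.3 gene cacna1da averaged 1.13 ± 0.511 CPM in cryoinjured and 1.52 ± 0.111 CPM in uninjured platyfish ventricles (SD, n = 3 each), with overlap.

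Among the auxiliary calcium channel subunits, CACNA2D3 rose in platyfish. It encodes an alpha2delta subunit, a class of extracellular proteins that raise the amount of calcium channels at the membrane. The tested gene (ENSXMAG00000028727, chromosome 1) had 1.43, 0.917 and 1.23 CPM in cryoinjured ventricles, against 0.342, 0.350 and 0.341 CPM in uninjured ones. These values were 41, 26 and 31 counts against 10, 9 and 7, and every injured pool lay above every uninjured one. Of the uninjured libraries only replicate 1 reached the minimum of 10 counts, so the gene passed it mainly through its cryoinjured libraries. The log2 fold change was 1.78 ± 0.40 with an adjusted p of 0.0463 (edgeR quasi-likelihood test, Benjamini-Hochberg). This call rested on all libraries: with any 1 of the 6 left out the adjusted p was 0.0575 to 0.149, with log2 fold changes of 1.63 to 1.94, and with the replicate block it was 0.109. With every gene that had a count kept in the fit, CACNA2D3 was not called. Another gene of this symbol, cacna2d3 on chromosome 20, had 0 counts in every platyfish library.

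None of the other calcium subunit genes passed the test. Cacna2d1a, the alpha2delta subunit most used in mammalian heart, had 17.8, 12.4 and 13.97 CPM in cryoinjured and 18.5, 18.5 and 19.7 CPM in uninjured zebrafish ventricles. The groups did not overlap, and the log2 fold change of -0.36 ± 0.17 had an adjusted p of 0.358 (edgeR quasi-likelihood test, Benjamini-Hochberg). In platyfish it had 10.3, 15.6 and 15.2 CPM in cryoinjured and 13.8, 13.8 and 15.8 CPM in uninjured ventricles, with overlap. Cacnb2a, the beta subunit that traffics Cav1.2 to the membrane, averaged 8.09 ± 0.988 CPM in cryoinjured and 7.45 ± 0.918 CPM in uninjured zebrafish ventricles (SD, n = 3 each). In platyfish cacnb2a averaged 3.11 ± 1.16 CPM in cryoinjured and 4.75 ± 1.59 CPM in uninjured ventricles (SD, n = 3 each), and the groups overlapped in both species.

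The gamma subunit gene cacng6b was uneven among uninjured platyfish pools, with 27.3, 27.0 and 31.3 CPM in cryoinjured and 70.2, 47.3 and 21.7 CPM in uninjured ventricles. Uninjured replicate 3 lay below all injured pools, and without it the log2 fold change of -0.70 became -1.04 with an adjusted p of 0.0220 in place of 0.285 (edgeR quasi-likelihood test, Benjamini-Hochberg). This was the 1 omission of 6 past the test, in a fit that called 596 of 15191 genes higher and 439 lower. Over the 6 omissions the log2 fold change ran from -1.04 to -0.28 and the adjusted p from 0.0220 to 0.671 (edgeR quasi-likelihood test, Benjamini-Hochberg). Over the 9 tested zebrafish genes of the auxiliary calcium class, TARP genes included, log2 fold changes ran from -0.57 to 1.16, the highest being cacng7b. Over the 9 of platyfish they ran from -1.08 to 1.78.

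Of the tested sodium channel genes, 4 of 5 in zebrafish and 4 of 7 in platyfish had a negative log2 fold change, and none passed the main test. DESeq2 called platyfish scn1laa and scn4ba lower and scn2b higher, beside 5.03% of all genes lower and 6.01% higher. The unfiltered edgeR fit called scn1laa lower, beside 265 of 20718 genes. Scn5lab, a zebrafish counterpart of the cardiac sodium pore Nav1.5, had 13.7, 10.6 and 11.5 CPM in cryoinjured ventricles, against 15.2, 14.3 and 18.5 CPM in uninjured ones. The groups lay apart, and the log2 fold change was -0.42 ± 0.18 with an adjusted p of 0.298 (edgeR quasi-likelihood test, Benjamini-Hochberg). In platyfish no gene with the symbol scn5lab was tested. There scn1laa, a pore of the Nav1.1 type, had 3.95, 2.96 and 3.26 CPM in cryoinjured ventricles, against 6.64, 5.10 and 10.3 CPM in uninjured ones. These groups did not overlap either, with a log2 fold change of -1.11 ± 0.28 and an adjusted p of 0.0627 (edgeR quasi-likelihood test, Benjamini-Hochberg). The table holds SCN4A, the skeletal muscle sodium pore of mammals, as 2 tested platyfish genes on chromosome 16, with log2 fold changes of -0.35 and 0.28. The positive zebrafish gene was scn4ab, with a log2 fold change of 1.06 ± 1.01. It had 17.6, 1.51 and 6.99 CPM in cryoinjured and 5.95, 0.952 and 5.55 CPM in uninjured ventricles, with overlap.

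The sodium channel beta subunits are cell adhesion-like proteins that modulate the pore. Scn3b had 123, 63.9 and 81.3 CPM in cryoinjured and 146, 88.1 and 123 CPM in uninjured zebrafish ventricles, with overlap. In platyfish it had 168, 182 and 194 CPM in cryoinjured and 271, 243 and 202 CPM in uninjured ventricles, without overlap. The log2 fold change was -0.41 ± 0.26 in zebrafish and -0.40 ± 0.16 in platyfish, with adjusted p-values of 0.493 and 0.170 (edgeR quasi-likelihood test, Benjamini-Hochberg). Without zebrafish cryoinjured replicates 2 and 3 the zebrafish value was 0.05.

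Scn4ba had 11.6, 4.22 and 3.16 CPM in cryoinjured and 12.2, 8.43 and 15.3 CPM in uninjured zebrafish ventricles. Zebrafish cryoinjured replicate 1 reached the uninjured range, and the other 2 injured pools lay below it. Platyfish scn4ba had 1.68, 6.49 and 4.81 CPM in cryoinjured and 10.9, 12.8 and 11.996 CPM in uninjured ventricles. All injured platyfish pools lay below the uninjured ones, with a log2 fold change of -1.46 ± 0.41 and an adjusted p of 0.0867 (edgeR quasi-likelihood test, Benjamini-Hochberg). DESeq2 gave an adjusted p of 0.0048 for this platyfish gene. In zebrafish the log2 fold change was -0.91 ± 0.47 with an adjusted p of 0.402 and, without cryoinjured replicate 1, -1.69 with an adjusted p of 0.0337 (edgeR quasi-likelihood test, Benjamini-Hochberg). This was the 1 omission of 6 past the test, in a fit that called 159 of 13127 genes higher and 124 lower. Over the 6 omissions the log2 fold change ran from -1.69 to -0.59 and the adjusted p from 0.0337 to 0.657 (edgeR quasi-likelihood test, Benjamini-Hochberg). The weakest of the 13 other settings gave -0.05.

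Other platyfish beta subunits were on the higher side, with a log2 fold change of 1.74 for scn2b (adjusted p 0.0894) and 0.62 for scn1bb (adjusted p 0.368, edgeR quasi-likelihood test, Benjamini-Hochberg). Scn2b had 2.38, 0.952 and 1.59 CPM in cryoinjured and 0.787, 0.350 and 0.293 CPM in uninjured ventricles, without overlap. By position, scn2b, scn3b, scn4ba and kcne4 are all listed on chromosome 18 of platyfish, and all on chromosome 15 of zebrafish, where scn2b had too few counts to be tested.

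The tested pacemaker gene and the K2P gene with the most counts overlapped between groups in both species. Hcn2b, the 1 tested HCN gene of each species, had 59.7, 85.0 and 80.0 CPM in cryoinjured and 62.3, 64.3 and 88.4 CPM in uninjured zebrafish ventricles. In platyfish it had 2.55, 3.63 and 3.34 CPM in cryoinjured and 2.98, 2.41 and 4.68 CPM in uninjured ventricles. Both pairs of groups overlapped, and the log2 fold changes of 0.06 ± 0.18 in zebrafish and -0.07 ± 0.30 in platyfish changed sign in some of the other settings.

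That K2P gene, kcnk6, encodes TWIK-2. It averaged 3.06 ± 0.547 CPM in cryoinjured and 3.60 ± 0.633 CPM in uninjured zebrafish ventricles, and 17.3 ± 1.73 CPM in cryoinjured and 17.1 ± 2.05 CPM in uninjured platyfish ventricles (SD, n = 3 each). The TWIK-1 gene kcnk1a averaged 0.362 ± 0.361 CPM in cryoinjured and 0.614 ± 0.426 CPM in uninjured zebrafish ventricles. Zebrafish kcnk1b, a separate gene, stayed under the count minimum. Platyfish kcnk1b averaged 11.4 ± 0.794 CPM in cryoinjured and 9.96 ± 0.808 CPM in uninjured ventricles (SD, n = 3 each). None of these 4 comparisons passed the test and all overlapped.

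The small-conductance calcium-activated channel genes also overlapped between groups. Zebrafish kcnn1a had 20.001, 14.6 and 13.9 CPM in cryoinjured and 17.3, 15.8 and 10.6 CPM in uninjured ventricles. Platyfish kcnn3 had 20.8, 11.3 and 19.6 CPM in cryoinjured and 18.7, 19.8 and 14.6 CPM in uninjured ventricles. Scnm1, the splicing factor gene that shares the symbol prefix, had log2 fold changes of -0.27 ± 0.38 in zebrafish and -0.24 ± 0.17 in platyfish, both with overlap.

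Summed over all members of a class, Kir channels of platyfish differed most between groups, with 193, 191 and 215 CPM in cryoinjured and 459, 404 and 344 CPM in uninjured ventricles. Kcnj14 made up 93.7% of this sum, and without it the class was 20.04, 20.6 and 21.0 CPM in cryoinjured and 19.5, 13.5 and 19.8 CPM in uninjured ventricles. Such shares also depend on transcript lengths, which the files do not give. Sodium auxiliary subunits of platyfish summed to 174, 191 and 204 CPM in cryoinjured and 285, 258 and 216 CPM in uninjured ventricles, without overlap, and 94.8% of the sum was scn3b. The sum of sodium pores was 6.86, 5.64 and 7.08 CPM in cryoinjured and 10.9, 8.29 and 13.8 CPM in uninjured platyfish ventricles, also without overlap. On the total count, without the scaling factors, the sodium pore sums overlapped, at 7.57, 6.13 and 6.78 CPM in cryoinjured and 10.2, 7.15 and 14.8 CPM in uninjured ventricles, and they overlapped without scn1laa as well. Over all members, platyfish ventricles held 802, 768 and 859 CPM after cryoinjury and 1225, 1153 and 1003 CPM without injury. The platyfish sums did not overlap, with a log2 ratio of -0.48. Without kcnj14, a sum added after the values were seen, they were 629, 597 and 664 CPM in cryoinjured and 786, 762 and 679 CPM in uninjured ventricles, with a log2 ratio of -0.24.

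In zebrafish all members summed to 643, 599 and 598 CPM in cryoinjured and 626, 594 and 712 CPM in uninjured ventricles, which overlapped, with a log2 ratio of -0.07. The Kv auxiliary class was the 1 zebrafish class whose sums did not overlap, at 23.7, 36.6 and 35.2 CPM in cryoinjured and 23.3, 19.8 and 18.4 CPM in uninjured ventricles. Kcne4 made up 97.4% of it. No test was made of these sums, since their members were chosen with results known.

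**Figure D3:**
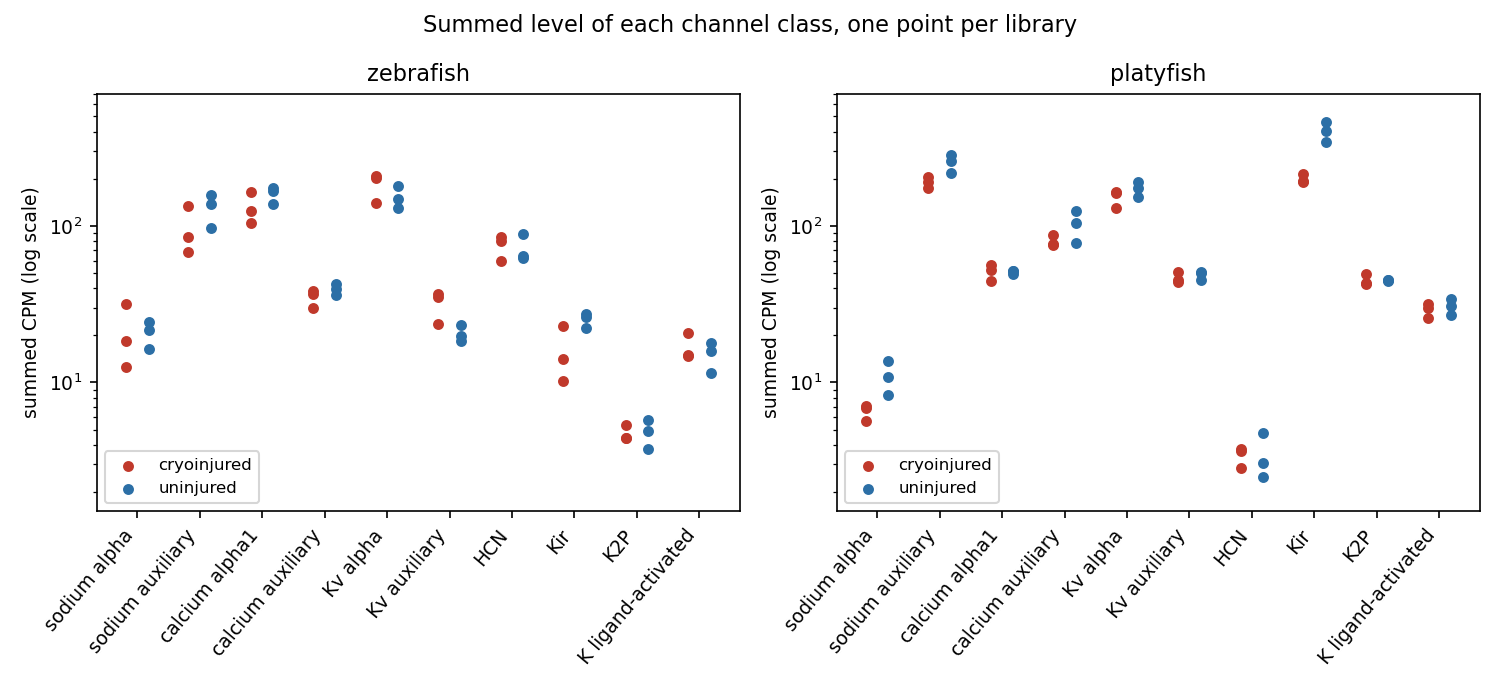
Summed level in CPM (log scale) of each channel class in every library, zebrafish left and platyfish right, with cryoinjured libraries in red and uninjured libraries in blue beside them. The groups lie apart for platyfish Kir channels (191 to 215 CPM in cryoinjured, 344 to 459 CPM in uninjured pools) and overlap for pores of Kv and calcium channels in both species.

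The responses of the species were compared directly for the 20 members with the same symbol that were tested in both. Matching by symbol does not establish that genes are orthologs. Of the 8143 matched genes, 1.17% had a response called more positive in zebrafish and 1.38% a response called more positive in platyfish. Among the members 0 were called more positive in zebrafish and 1, kcne4, more positive in platyfish (edgeR quasi-likelihood test of the interaction, Benjamini-Hochberg). At an unadjusted p under 0.05 these were 0 and 3 members, against 9% and 10.4% of the matched genes, and DESeq2 called 0 and 2, against 3.98% and 3.79%. Kcne4 and kcnq5a, which passed the platyfish count minimum through their cryoinjured libraries only, are among the 3.

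The kcne4 response was 0.68 in zebrafish and 6.63 in platyfish on the log2 scale, a difference of -5.93 ± 1.07 (SE), at an adjusted p of 0.0163 (edgeR quasi-likelihood test of the interaction, Benjamini-Hochberg). The estimates were positive in both species, but the zebrafish response did not pass the main test. In platyfish the direction was built in by the selection of the gene through its cryoinjured libraries. The size of the platyfish response rests on that selection too, and on an uninjured level of 1 count in 3 libraries. With every gene that had a count kept in the fit, the difference was -5.95, at an adjusted p of 0.0188 (edgeR quasi-likelihood test of the interaction, Benjamini-Hochberg). The adjusted p was 0.0578 without platyfish uninjured replicate 1 and 0.0521 without platyfish uninjured replicate 2. Without any of the platyfish cryoinjured libraries the gene was not tested.

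Kcnq5a differed by -3.25 ± 0.81, with responses of -0.36 in zebrafish and 2.89 in platyfish and an adjusted p of 0.0516 (edgeR quasi-likelihood test of the interaction, Benjamini-Hochberg). Its platyfish values, too, came from few counts and from a selection through the cryoinjured libraries only. The cacna1c responses of -0.59 in zebrafish and 0.03 in platyfish differed by -0.62 ± 0.22, with an adjusted p of 0.138 (edgeR quasi-likelihood test of the interaction, Benjamini-Hochberg). For kcnj14, lower without overlap in both species, the species differed by 0.27 ± 0.34, at an adjusted p of 0.710 (edgeR quasi-likelihood test of the interaction, Benjamini-Hochberg). An injury response of kcnj14 past the test in platyfish and not in zebrafish was thus not a shown difference between species, and neither was it shown to be equal. Kcnh6a differed by 0.53 ± 0.29 and scn4ba by 0.54 ± 0.67, neither past the test.

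**Figure D4:**
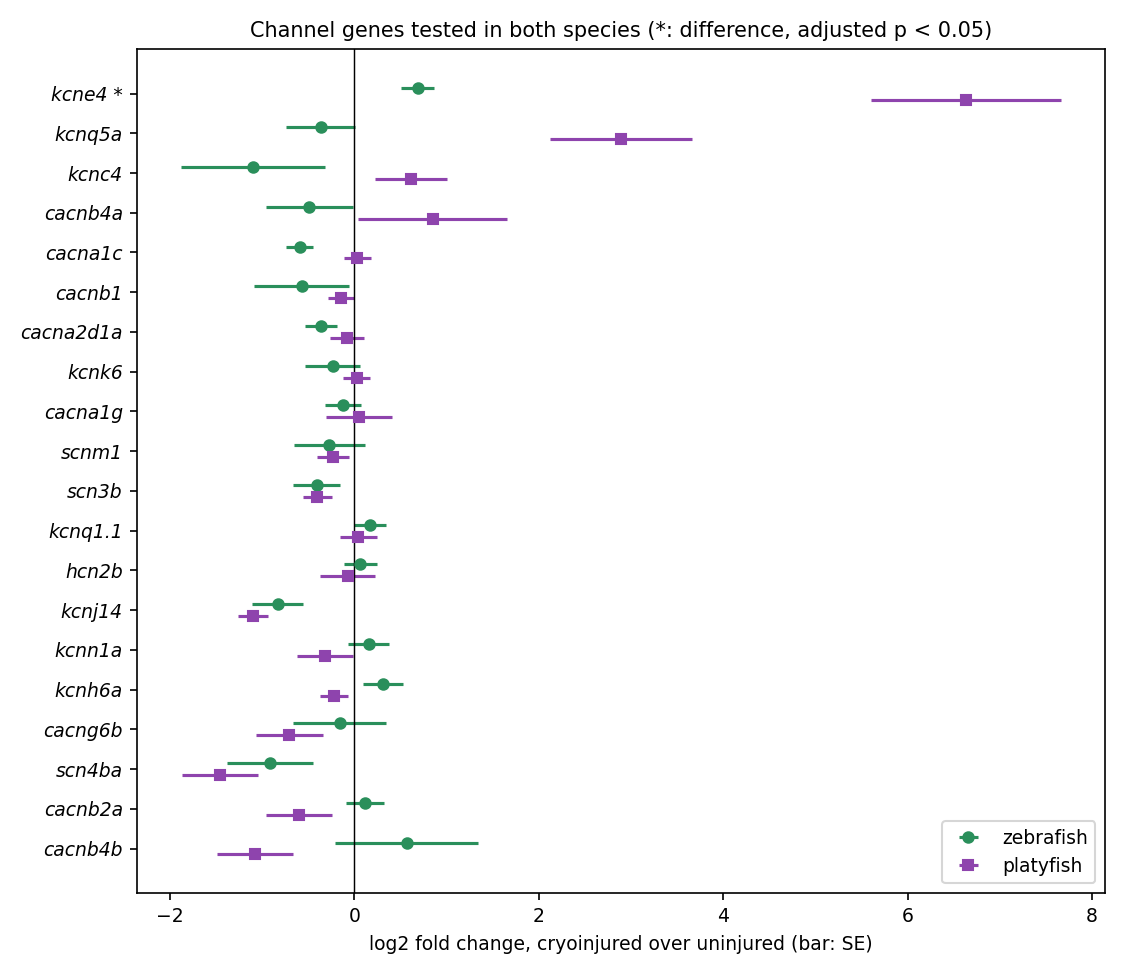
Log2 fold change, cryoinjured over uninjured, of the 20 channel genes tested under the same symbol in both species, with zebrafish drawn above platyfish in each pair and bars showing the standard error. Kcne4 (0.68 in zebrafish, 6.63 in platyfish) is the gene marked for a difference past the test, and scn3b (-0.41 in zebrafish, -0.40 in platyfish) lies at the same place in both.

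A panel of channel genes of the cardiac action potential and a list of their partners were counted in the same way. Of the panel, 12 genes were tested in zebrafish and 13 in platyfish. By edgeR 0 were called in zebrafish and 1, kcne4, higher in platyfish. Platyfish kcne4 passed the count minimum only through its cryoinjured libraries, so its difference was built into the selection. Over all genes edgeR called 0.67% higher and 0.302% lower in zebrafish, and 2.71% and 1.22% in platyfish. With so few genes, 0 or 1 call cannot be told from these shares. The median log2 fold changes of the panel were -0.24 in zebrafish and -0.04 in platyfish. Of the partner genes, which anchor, scaffold or regulate channels, 30 were tested in zebrafish and 19 in platyfish. The partner genes summed to 2315, 2173 and 2206 CPM in cryoinjured and 2410, 2252 and 2410 CPM in uninjured zebrafish ventricles, with overlap. In platyfish they summed to 1668, 1959 and 2195 CPM in cryoinjured and 2299, 2198 and 2425 CPM in uninjured ventricles, lower without overlap by a narrow margin. None of the 30 was called in zebrafish, and in platyfish 1 rose. This was DPP10, which encodes a transmembrane partner of Kv4 channels, with 7.97, 3.60 and 5.97 CPM in cryoinjured ventricles, against 0.582, 0.973 and 1.37 CPM in uninjured ones. All injured pools lay above the uninjured ones, with a log2 fold change of 2.60 ± 0.40 and an adjusted p of 0.0175 (edgeR quasi-likelihood test, Benjamini-Hochberg).

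Genes of nerve cells were counted beside the channels that mammalian neurons use. Of the neuron list, 11 of 26 genes in zebrafish and 6 of 20 in platyfish had no count in any library, among them chata, dbh, syn1 and phox2bb in both species. The summed level of the neuron list was 25.1 to 45.6 CPM in cryoinjured and 24.3 to 64.2 CPM in uninjured zebrafish ventricles, and 6.36 to 10.4 CPM in cryoinjured and 8.14 to 15.2 CPM in uninjured platyfish ventricles, with overlap and no gene called by edgeR in either species. The glia list, with 7.31 to 13.2 CPM in cryoinjured and 2.92 to 8.07 CPM in uninjured zebrafish ventricles, overlapped as well, as did platyfish glia with 5.35 to 7.95 CPM in cryoinjured and 6.34 to 7.90 CPM in uninjured ventricles. Skeletal muscle genes, in which SCN4A and several Kir and calcium channel genes are also active, were lower without overlap in platyfish and overlapped in zebrafish. Their sums were 195 to 263 CPM in cryoinjured and 271 to 316 CPM in uninjured platyfish ventricles, with 0 of 7 called by edgeR. In zebrafish they were 75.1 to 109 CPM in cryoinjured and 88.3 to 145 CPM in uninjured ventricles, also with 0 of 7 called. The part of nerve, glia and skeletal muscle cells in the channel values was not tested.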

How the data were processed

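For either species the authors deposited whole-number counts per gene, used here unchanged. They also deposited a normalised signal, checked to be the count times 1 constant per library, which was otherwise not used. The authors' deposited log2 fold changes came from their DESeq2 comparison, per the file headers, and were not used here. The authors' deposited adjusted p-values came from the same comparison, per the file headers, and were not used here either. Per the submitters' processing notes, FastQC, HISAT2 2.2.1, featureCounts 2.0.1, DESeq2 1.38.3 and GRCz11 were used. The platyfish build, the annotation release and the strand setting are not given in the sources used here, so a gene and an antisense neighbour cannot be told apart with certainty. In platyfish the cryoinjured libraries carry a treatment label that names zebrafish, while title, organism and library name give platyfish and were followed.

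Genes with at least 10 counts in at least 3 of the 6 libraries of a species were fitted with edgeR 4.0.16 in R 4.3.3 (TMM factors, robust glmQLFit, glmQLFTest), each species alone, with p-values adjusted by Benjamini-Hochberg over all genes and a threshold of 0.05. Standard errors are the absolute log2 value over the square root of F. CPM are counts per 1000000 of the library total times its TMM factor. The species difference was tested as zebrafish response minus platyfish response over 12 libraries, with genes matched by lower-case symbols found once in each table. No transcript lengths were given, so shares of a class sum and the ranking of members by level within a class also depend on length. Named members were those past the threshold and tested members of the cardiac panel. They also took in the 3 smallest unadjusted p in each direction and the member with the highest mean CPM in each class. Others, named for a non-overlap, a filter, a copy number, a position or a sign, were chosen after their values were seen. Members, lists and tests were chosen with earlier results of these data known. The fits were tested on simulated counts, with changes placed only in genes of higher mean count than platyfish kcne4, kcnq5a or CACNA2D3. Calls in genes with so few counts were therefore not covered.

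Libraries of a group differed by more than counting noise (chi-square per degree of freedom at least 23.3), so none was counted as a copy. The labels do not say whether pools of different numbers were handled apart, so p-values measure the spread between these pools. They file the replicate number under a batch tag. Same-numbered libraries had correlations of their deviations from the group means of 0.129, 0.141 and 0.0159 (zebrafish) or -0.0804, -0.177 and -0.170 (platyfish). For differently numbered libraries they ran from -0.203 to 0.0863 (zebrafish) and from 0.0136 to 0.197 (platyfish). In zebrafish the blocked fit called 124 of 13578 genes higher and 70 lower, against 91 and 41 in the main fit, and no member in either. The fit without the number as a block was the main one, and the blocked value stands beside each call it changes. Alternatives were DESeq2 1.42.0, RLE or library-size scaling, filterByExpr, no filter, the block and leaving out each library. Added after the data were seen was leaving out zebrafish cryoinjured replicates 2 and 3. That fit leaves 1 injured zebrafish pool, so only its log2 values are given.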

Additional observations from a re-analysis of the deposited data

Results flagged for a closer look

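The difference between the species in the kcne4 response is listed here for its interaction value. Zebrafish minus platyfish was -5.93 on the log2 scale, with responses of 0.68 in zebrafish and 6.63 in platyfish. The counts behind the platyfish value were 15, 75 and 55 in cryoinjured and 0, 1 and 0 in uninjured ventricles. Platyfish kcne4 passed the count minimum only through its cryoinjured libraries, so a difference was built into its selection, and the value is given as a description. With every gene that had a count kept in the fit it was -5.95.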

How the results depend on the processing

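No zebrafish member was called by edgeR's main fit; DESeq2 and the unfiltered fit each called 1 higher and 1 lower, scaling by library size alone called 1 higher, and leaving out a library called 0 to 1 higher and 0 to 3 lower. In platyfish (2 higher, 1 lower) DESeq2 called 4 and 4, the unfiltered fit 1 and 2, the replicate block 1 and 0, and leaving out a library 0 to 2 in both directions. The block changed no other call. For the species difference (1 member) DESeq2 called 2, and leaving out a library 0 to 3. Numbers called over all genes changed between these fits as well. In zebrafish the unfiltered fit called 270 of 21820 genes higher and 247 lower, and library-size scaling 224 and 5 of 13578. A zebrafish library left out gave 26 to 159 genes higher and 1 to 124 lower. In platyfish the unfiltered fit called 506 of 20718 higher and 265 lower, and a library left out 21 to 596 and 6 to 439. For the species difference a library left out gave 32 to 173 genes more positive in zebrafish and 37 to 288 in platyfish.

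Many class sums rested largely on 1 gene. In others the largest member made up less, at 45.2% of the zebrafish calcium auxiliary sum. It made up 38.2% of the platyfish K2P, 41.1% of the calcium auxiliary and 41.9% of the Kv auxiliary sum. Without the member with the most counts the log2 ratio of sums became -1.67 for zebrafish HCN, 0.47 for K2P, 0.11 for Kir, -1.17 for Kv auxiliary, -0.63 for calcium alpha1, 0.89 for sodium alpha and -0.93 for sodium auxiliary genes. In platyfish it became 1.69 for HCN, 0.22 for Kir, -0.28 for Kv auxiliary, -0.22 for sodium alpha and -0.71 for sodium auxiliary genes. Some of these reduced sums lie near 0. Zebrafish HCN genes without hcn2b averaged 0.110 CPM in cryoinjured and 0.350 CPM in uninjured ventricles, and platyfish ones 0.246 and 0.0764 CPM. Zebrafish Kv auxiliary genes without kcne4 averaged 0.425 and 0.955 CPM, so these ratios rest on few counts. With CPM on the total count the log2 ratio of full class sums was 0.14 for platyfish K2P genes, against 0.0026 in the main scaling. Its sign turned for zebrafish K2P (-0.02 to 0.15) and zebrafish calcium auxiliary genes (-0.18 to 0.0071). In platyfish it turned for calcium- or sodium-activated potassium (-0.08 to 0.06), Kv auxiliary (-0.063 to 0.076) and HCN genes (-0.0048 to 0.084).

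Sign reversals concerned members not past the test, and the cause was not tested. Without zebrafish cryoinjured replicates 2 and 3 the log2 fold change became -0.26 for hcn2b, 0.42 for kcnj12a, -0.19 for kcnh6a, 0.24 for cacna1g, -0.086 for cacnb2a and 0.053 for scn3b. Scaling by library size alone gave 0.061 for zebrafish cacna1g and, in platyfish, 0.022 for hcn2b, 0.10 for kcnn3 and 0.041 for cacna2d1a, and the block gave -0.054 for platyfish cacna1g. With a library left out the zebrafish range was -0.026 to 0.24 for hcn2b, -0.030 to 0.30 for kcnn1a, -0.018 to 0.33 for kcnq1.1 and -0.35 to 0.045 for cacna1g. In platyfish it was -0.27 to 0.23 for hcn2b, -0.20 to 0.19 for kcnn3, -0.076 to 0.10 for kcnk6, -0.16 to 0.20 for kcnq1.1, -0.10 to 0.11 for cacna1c, -0.49 to 0.31 for cacna1g and -0.18 to 0.10 for cacna2d1a. The species difference ranged from -0.12 to 0.53 for kcnj14 and from -0.24 to 0.96 for scn4ba. In all, 33 values reversed. Few counts limit kcne4, kcnq5a and CACNA2D3 in platyfish, and 3 pools a group limit every test.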
